A study of Mus musculus with 40 samples.

Results

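The genes described here are 9 enzymes and 1 carrier that make, use or reoxidize NAD or move its electrons into mitochondria: Nampt, Nmnat3, Cd38, Nadk, Nnt, Mdh1, Got1, Got2, Slc25a12 and Gpd2. They were chosen by symbol as rows of a table of read counts for 43430 genes, and all 10 were found in it, each under 1 identifier. The RNA-seq samples were BMDMs (bone marrow-derived macrophages), primary cells grown from mouse marrow with M-CSF, here in medium that also held methyl-pyruvate and uridine. Cells came from 5 VAV-Cre WT mice and 5 VAV-Cre NDI1 mice, and each mouse gave 4 libraries, so that there were 8 groups of 5 libraries, or 40 in all. Both genotypes carry Vav-iCre, a Cre recombinase driven by a promoter of hematopoietic cells. NDI1 mice also carry the yeast NADH dehydrogenase NDI1 behind a lox-stop-lox cassette in Rosa26, so that blood-forming cells and their offspring express it. The mice were littermates of both sexes on a mixed C57BL/6J and C57BL/6N background, labelled C57/Bl6. Cells were left untreated or given LPS, a bacterial cell wall component that activates macrophages, at 100 ng/mL for 4 h. Other cells received piericidin A, which blocks complex I of the respiratory chain, at 500 nM, either alone or 30 min before LPS.

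NAD carries electrons from glycolysis and the TCA cycle. Macrophages remake it mainly by salvage, in which Nampt converts nicotinamide to nicotinamide mononucleotide and a Nmnat enzyme completes NAD, while Cd38 breaks NAD down. NADH made in the cytosol cannot cross the inner mitochondrial membrane, so its electrons enter by shuttles. In the malate-aspartate shuttle, Mdh1 and Got1 act in the cytosol, Got2 in the matrix, and Slc25a12 exchanges aspartate for glutamate across the membrane. In the glycerol phosphate shuttle, Gpd2 passes electrons to coenzyme Q without complex I. Complex I oxidizes matrix NADH, and NDI1 does the same work without pumping protons and is not blocked by piericidin A, so the comparison of both genotypes asks which responses to the drug go with lost NADH oxidation.

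The 40 libraries held between 6950748 and 13552070 counts. Levels are given as CPM, the count divided by the library total scaled by trimmed mean of M values (TMM) and multiplied by 1e6. The TMM scaling differed between libraries with and without LPS. In WT mouse 449, Got2 held 517 of 8955095 counts untreated and 301 of 10157670 with LPS. These gave 42.1 and 41 CPM. All LPS effects rest on such scaling, and unscaled library totals were not tried. The fits covered 11853 genes that passed a filter on low counts, among them all 10 members. Macrophage markers were high throughout, with the summed level of 8 markers between 19674 and 38691 CPM. The libraries of 1 WT mouse (496) and 1 NDI1 mouse (503) stood apart. Summed over 8 neutrophil markers, of which none was at 3 or fewer counts in all libraries, these 8 libraries held 544 to 3138 CPM and the other 32 held 15.1 to 194 CPM. By group, this sum ranged from 27.6 to 557 CPM in untreated WT, 54.3 to 1167 CPM with LPS, 36.6 to 1798 CPM with piericidin A and 111 to 3138 CPM with both. In NDI1 the same ranges were 15.1 to 544 CPM, 37 to 898 CPM, 22.5 to 688 CPM and 51.1 to 940 CPM. The median of the neutrophil sum went from 60 CPM untreated to 181 CPM with both in WT, and from 68.9 to 133 CPM in NDI1. Dendritic cell markers, 5 genes in all, summed to 5.56 to 57 CPM in mice 496 and 503 and 1.14 to 17.3 CPM in the others. This sum also moved with LPS, from a median of 2.73 CPM untreated to 9.51 CPM with LPS and 14.8 CPM with both agents in WT, and from 3.51 to 6.48 and 6.54 CPM in NDI1. The 5 B cell markers summed to 2.23 to 14.4 CPM against 0.48 to 3.08 CPM, and 5 fibroblast markers to 9.86 to 110 CPM against 0.774 to 20.6 CPM. The 4 mast cell and basophil markers, of which Ms4a2 and Fcer1a were at 3 or fewer counts everywhere, summed to 0.397 to 6.83 CPM against 0 to 0.64 CPM. T cell markers, 4 in all with Cd3d at 3 or fewer counts, reached at most 2.61 CPM, and all 5 erythroid markers were at 3 or fewer counts. The part of these cells in the results was not tested, and calls of the members that change without these mice are given both ways. In bulk RNA, fewer cells of a type and less RNA per cell cannot be told apart.

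Per kilobase of annotated exon, the members spanned a wide range of levels in untreated WT cells. Nadk, the kinase that makes NADP from NAD, was highest at 68 CPM per kb, and Nampt followed at 48.3 CPM per kb. Mdh1 and Got1 stood close together at 26.3 and 26.2 CPM per kb. Gpd2 was at 10.8, Got2 at 9.46 and Slc25a12 at 4.47 CPM per kb. The lowest were Nnt, the mitochondrial transhydrogenase that makes NADPH from NADH, at 3.46, Nmnat3, a mitochondrial NAD-forming enzyme, at 1.64, and Cd38 at 1.12 CPM per kb. With LPS this order changed: Nampt led at 244 CPM per kb, Nadk and Gpd2 were next at 72.4 and 70.5 CPM per kb, and Nmnat3 was last at 0.754 CPM per kb. Exon lengths were those of GENCODE M21, which is on the mm10 assembly used by the authors, and ranged from 2539 bases for Got1 to 7342 bases for Slc25a12.

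Nampt (ENSMUSG00000020572) lies on the plus strand of chromosome 12 from 32820335 to 32853369, Gpd2 (ENSMUSG00000026827) on the plus strand of chromosome 2 from 57237635 to 57370719, and Slc25a12 (ENSMUSG00000027010) on the minus strand of chromosome 2 from 71271063 to 71367749. Got1 (ENSMUSG00000025190) is on the minus strand of chromosome 19 from 43499752 to 43524605, and Cd38 (ENSMUSG00000029084) on the plus strand of chromosome 5 from 43868809 to 43912375. Counts were taken over exons. Gpd2 shares 487 exon bases with the opposite-strand gene A930012O16Rik and Mdh1 shares 52 with opposite-strand Wdpcp, and since the use of strand in counting was not given in the sources used here, reads from such stretches cannot be told apart. Nnt has 2 identifiers in GENCODE M21, of which ENSMUSG00000025453 is the row used.

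RefSeq promoter windows, from 250 bases before to 50 bases after a start site on GRCm38.p6, were found for 9 members (11 windows) and not for Nnt. The 4 motifs given here were searched on both strands: the NF-kB consensus, the C/EBP-ATF composite TGATGNAA, the cAMP response element TGACGTCA and the E-box CACGTG. They occur in 8.46%, 3.97%, 1.79% and 7.15% of all 32851 windows. The windows shown are those with a match, Got1 and the second start site of Nadk, together with Nampt and Cd38, whose windows differ most in CG content among the genes that LPS raised. Capitals mark the matches, each window is written 5′ to 3′ on the strand of its gene, and the intervals are chr19:43524556-43524855 for Got1 (minus strand), chr4:155563565-155563864 for Nadk, chr12:32820085-32820384 for Nampt and chr5:43868559-43868858 for Cd38 (plus strand).
Got1: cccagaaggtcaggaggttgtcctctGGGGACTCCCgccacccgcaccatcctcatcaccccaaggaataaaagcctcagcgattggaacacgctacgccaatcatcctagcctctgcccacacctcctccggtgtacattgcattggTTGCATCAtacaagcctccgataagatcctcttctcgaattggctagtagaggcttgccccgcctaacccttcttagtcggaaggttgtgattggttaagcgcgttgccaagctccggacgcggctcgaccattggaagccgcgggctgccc
Nadk: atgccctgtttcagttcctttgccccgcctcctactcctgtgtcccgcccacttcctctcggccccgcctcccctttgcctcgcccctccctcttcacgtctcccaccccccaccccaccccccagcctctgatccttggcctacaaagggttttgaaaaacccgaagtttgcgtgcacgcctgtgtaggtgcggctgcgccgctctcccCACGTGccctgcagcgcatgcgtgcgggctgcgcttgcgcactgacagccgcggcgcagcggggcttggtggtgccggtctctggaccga
Nampt: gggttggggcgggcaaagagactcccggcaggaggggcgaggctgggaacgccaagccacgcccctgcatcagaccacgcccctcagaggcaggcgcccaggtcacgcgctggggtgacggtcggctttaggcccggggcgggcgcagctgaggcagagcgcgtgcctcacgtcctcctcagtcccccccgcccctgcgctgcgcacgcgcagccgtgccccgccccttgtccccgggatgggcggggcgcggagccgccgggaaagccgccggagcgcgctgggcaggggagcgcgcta
Cd38: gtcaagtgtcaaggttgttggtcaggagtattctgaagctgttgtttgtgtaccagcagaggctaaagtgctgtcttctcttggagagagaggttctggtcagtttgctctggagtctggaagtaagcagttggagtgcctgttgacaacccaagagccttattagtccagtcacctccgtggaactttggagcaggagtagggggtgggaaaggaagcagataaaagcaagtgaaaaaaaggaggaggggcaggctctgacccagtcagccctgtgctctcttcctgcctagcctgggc
The Got1 window held an NF-kB match that starts at -224 and a C/EBP-ATF match that starts at -102, read on the opposite strand, and the second Nadk window held an E-box at -40. No motif overlapped another. None of the other 9 windows held any of these letters. The Nampt window held 36 CG dinucleotides and was 76.3% G or C, while the Cd38 window held 1 and was 51.7% G or C. Over all windows the medians were 7 CG dinucleotides and 52.7%. These matches are a description of the sequence and were not tested for binding.

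LPS raised 4 of the 10 genes and lowered 2 in WT cells. Nampt, Cd38, Slc25a12 and Gpd2 rose, Nmnat3 and Got1 fell, and Nadk, Nnt, Mdh1 and Got2 did not pass the test (edgeR quasi-likelihood test, Benjamini-Hochberg adjusted p under 0.05 over 11853 genes). The same 6 genes passed in NDI1 cells, in the same directions. LPS changed much of the transcriptome, since 62.5% of tested genes passed in WT (31.5% higher and 31% lower) and 62.7% in NDI1 (31.5% higher and 31.2% lower), so that 6 of 10 members is near this background.

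Gpd2, the membrane dehydrogenase of the glycerol phosphate shuttle, had the largest rise of the shuttle genes. In untreated WT cells it was at 36.5, 71.7, 49.1, 119 and 76.6 CPM in mice 449, 452, 453, 496 and 520, and with LPS at 451, 469, 318, 647 and 423 CPM. Every WT library with LPS was above every untreated one. The fitted change was 2.71 ± 0.34 (log2 fold change ± SE), or 6.54-fold, with an adjusted p of 1.02e-08 (edgeR). In NDI1 cells Gpd2 went from 34.4 to 127 CPM untreated to 364 to 597 CPM with LPS, a change of 2.64 ± 0.34 (adjusted p = 1.71e-08, edgeR).

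Slc25a12, the aspartate-glutamate carrier also called Aralar, was the most even of the 10 genes. Its untreated level was 29.9, 32.2, 34.2, 34.1 and 33.6 CPM in the 5 WT mice, in the order above, and 35.6, 31.1, 30.4, 32.4 and 34.8 CPM in NDI1 mice 447, 460, 461, 503 and 521. With LPS it stood at 163, 139, 120, 147 and 131 CPM in WT and 117, 137, 152, 144 and 126 CPM in NDI1. The groups did not overlap in either genotype. The rise was 4.26-fold in WT (log2 fold change 2.09 ± 0.10, adjusted p = 4.39e-19, edgeR) and 4.11-fold in NDI1 (2.04 ± 0.10, adjusted p = 8.65e-19, edgeR).

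Got1, the cytosolic aspartate aminotransferase of the same shuttle, fell. In WT it went from 63.5, 61.3, 98, 61.5 and 48.6 CPM to 39.6, 38, 53.4, 23.9 and 27.4 CPM with LPS, and it was lower with LPS in 5 of 5 mice, although the groups overlapped. The change was -0.87 ± 0.21 on the log2 scale in WT (adjusted p = 0.000418, edgeR) and -0.91 ± 0.21 in NDI1 (adjusted p = 0.000239, edgeR). Mdh1 and Got2, the malate dehydrogenase of the cytosol and the aminotransferase of the matrix, stayed within a narrow range of CPM, which depends on the TMM scaling. Mdh1 averaged 67.6 ± 7.23 CPM untreated and 62.7 ± 10.4 CPM with LPS in WT (SD, n = 5), and Got2 45.6 ± 6.07 and 45.5 ± 6.94 CPM. In NDI1, Mdh1 was 68 ± 3.1 CPM untreated and 58.4 ± 2.83 CPM with LPS (SD, n = 5), 2 sets of libraries that did not overlap. The adjusted p was 0.105 without the mouse in the edgeR fit and 0.022 with the mouse as block, and the call with the block was lost without mice 496 and 503 (adjusted p = 0.0572). Without the block, Mdh1 also passed with only the compared groups in the fit (adjusted p = 0.0115), with at least 10 counts asked of every library (0.0335) and without mouse 453 (0.0361).

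The other genes of both shuttles are given here as a choice made after their values were seen. Slc25a13, the second aspartate-glutamate carrier and paralog of Slc25a12, moved opposite to it: it fell from 25.6 ± 7.36 to 10.7 ± 2.91 CPM in WT (SD, n = 5) with LPS, by 1.25 on the log2 scale (adjusted p = 3.47e-05, edgeR). Slc25a11, the oxoglutarate-malate carrier, fell by 0.61 (adjusted p = 2.41e-08, edgeR). Mdh2, the matrix malate dehydrogenase, had a log2 fold change of 0.11 ± 0.10 (adjusted p = 0.34, edgeR). Gpd1l, a cytosolic relative of the partner of Gpd2, fell by 1.17 (adjusted p = 2.54e-08, edgeR), and Gpd1, the cytosolic partner itself, reached at most 13 counts in any library and was not tested.

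Nampt, the rate-limiting enzyme of NAD salvage, rose about as much as the carrier. WT levels were 212, 214, 165, 300 and 331 CPM untreated and 1289, 1115, 793, 1496 and 1481 CPM with LPS. NDI1 levels were 227, 219, 206, 334 and 298 CPM untreated and 952, 822, 1140, 1465 and 1452 CPM with LPS. No library with LPS came down to an untreated one. The fold change was 5.06 in WT (log2 2.34 ± 0.26, adjusted p = 1.05e-09, edgeR) and 4.54 in NDI1 (2.18 ± 0.26, adjusted p = 4.43e-09, edgeR).

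Nmnat3 fell, and its untreated levels, 6.6 to 10.5 CPM in WT and 8.04 to 9.76 CPM in NDI1, lay above all those with LPS, 3.03 to 4.91 CPM and 1.47 to 4.34 CPM. It is the scarcest member after LPS, with 11 counts in the lowest NDI1 library. The change was -1.11 ± 0.25 in WT (log2, adjusted p = 0.000177, edgeR) and -1.49 ± 0.25 in NDI1 (adjusted p = 2.95e-06, edgeR).

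Cd38, an NAD glycohydrolase at the cell surface, had the largest fold change and the widest spread. WT mice 449, 452, 453, 496 and 520 were at 1.3, 3.92, 1.76, 12.9 and 1.97 CPM untreated and at 49, 49.3, 25, 126 and 29.5 CPM with LPS. NDI1 mice 447, 460, 461, 503 and 521 were at 2.79, 2.78, 0.244, 21.1 and 2.43 CPM and at 41.1, 36.5, 39.6, 159 and 31.1 CPM. Mice 496 and 503 were highest in both states, and LPS libraries still lay above all untreated ones of their genotype. Untreated mouse 461 held 3 counts, at the floor of 3 counts below which presence cannot be told from absence. The change was 3.69 ± 0.88 in WT (log2, adjusted p = 0.0004, edgeR) and 3.42 ± 0.86 in NDI1 (adjusted p = 0.000771, edgeR). Its size rests in part on these mice: without mouse 496 it was 4.07 in WT, without mouse 503 it was 4.14 in NDI1, and without both it was 4.07 and 4.15. Nampt, Nmnat3, Cd38, Got1, Slc25a12 and Gpd2 also passed in both genotypes without mice 496 and 503.

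Nadk averaged 255 ± 50.7 CPM untreated and 271 ± 31.7 CPM with LPS in WT, with overlapping groups (log2 fold change 0.09 ± 0.14, adjusted p = 0.604, edgeR). Nnt was lower with LPS in 5 of 5 WT mice, at 0.63 to 0.904 times the untreated level of the same mouse, and in 5 of 5 NDI1 mice, at 0.573 to 0.805 times. Its groups overlapped, because Nnt differed more between mice than between treatments. Without the mouse in the fit it did not pass (adjusted p = 0.214 in WT and 0.115 in NDI1, edgeR), and with the mouse as block it fell in both (adjusted p = 0.000123 and 1.11e-05). In NDI1 it also passed without the block with only the compared groups in the fit (adjusted p = 0.0145) and without mouse 520 (0.0485). With the block, 7 members passed in WT and 8 in NDI1 (7 without mice 496 and 503), where 72% and 72.4% of all genes passed. The difference of the LPS effect between genotypes passed for no member and for 0% of genes. At an unadjusted p under 0.05 the count of members was also 0, DESeq2 called 0, and the differences lay between -0.38 ± 0.35 for Nmnat3 and 0.02 ± 0.20 for Nadk on the log2 scale.

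**Figure D1:**
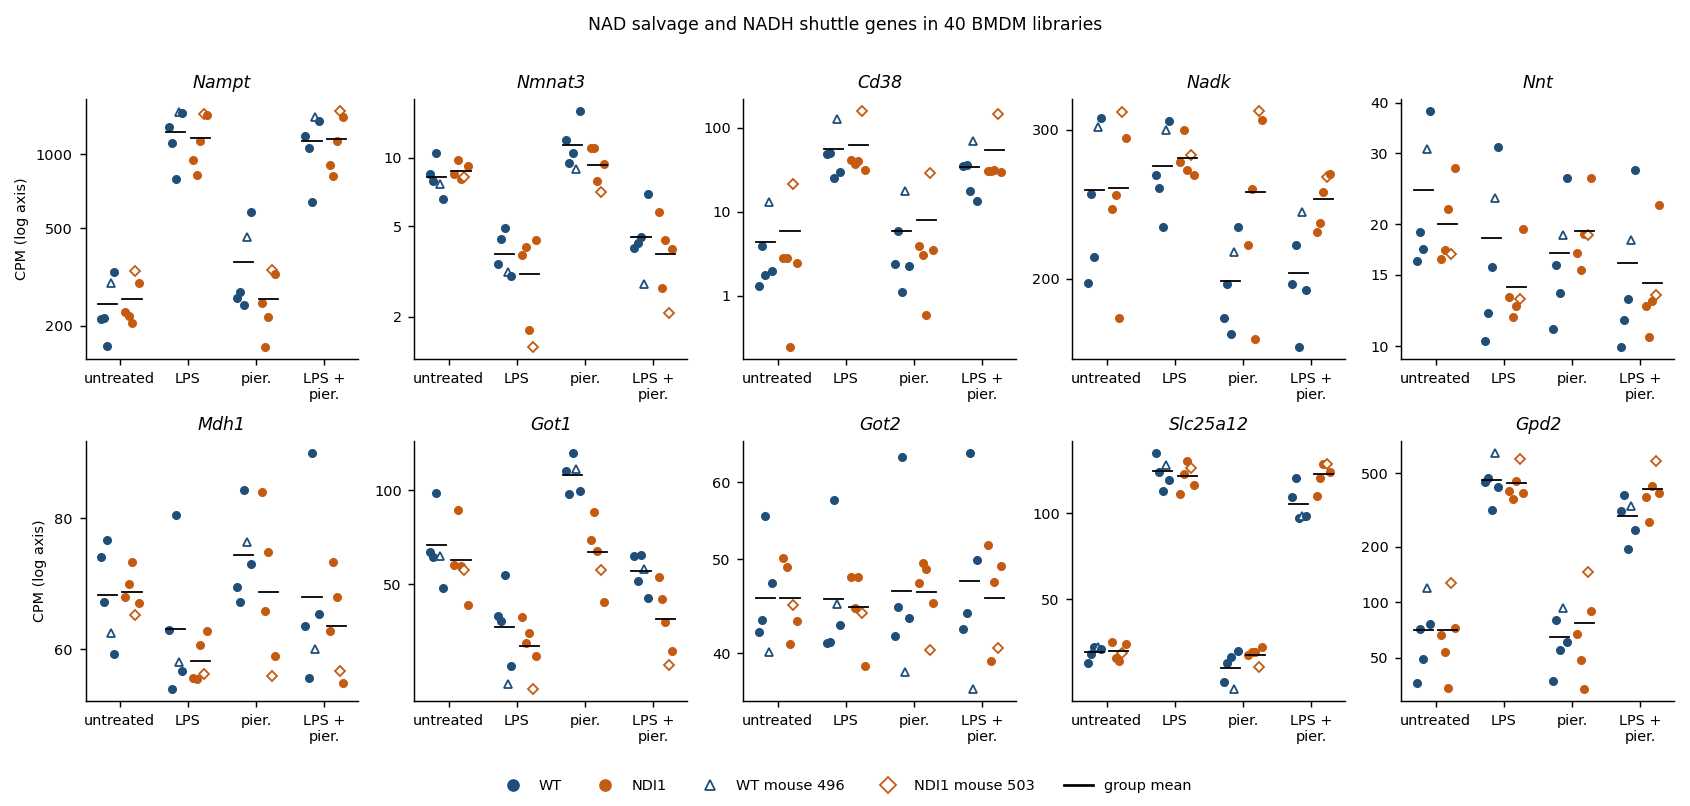
Level of each of the 10 genes in the 40 libraries, in CPM on a log axis, by treatment (pier., piericidin A) and genotype, with black bars for the mean of 5 mice. Gpd2, Nampt, Slc25a12 and Cd38 stand higher with LPS, and open symbols mark WT mouse 496 and NDI1 mouse 503, which are highest for Cd38.

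Piericidin A without LPS changed 1 member in WT cells: Got1 rose. The 5 WT mice were at 63.5, 61.3, 98, 61.5 and 48.6 CPM untreated and at 115, 97.2, 132, 117 and 99.5 CPM with the drug. Each mouse rose, by 1.34 to 2.05 times, while the groups overlapped only through untreated mouse 453. The change was 0.75 ± 0.20 on the log2 scale, or 1.68-fold (adjusted p = 0.0102, edgeR), and it was 1.72-fold with the mouse as block (adjusted p = 6.64e-06). Without mouse 496 the adjusted p was 0.0503, and without both 496 and 503 it was 0.0407. Over all genes, 14.8% passed this comparison, 7.79% higher and 7.05% lower. Got1 thus had its highest level of the 8 groups in WT cells with piericidin A, 112 ± 14.1 CPM (SD, n = 5), and that step was larger than the spread between mice.

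With the mouse as block, 5 members passed in WT, where 34.2% of genes did. Beside Got1, Nampt rose 1.46-fold (adjusted p = 0.000125) and was higher in 5 of 5 mice, by 1.22 to 1.76 times. Nmnat3 rose 1.37-fold (adjusted p = 0.0403), from 8.22 ± 1.44 to 11.4 ± 2.85 CPM (SD, n = 5). Its ratios within a mouse were 1.42, 1.2, 1, 1.17 and 2.43, highest in mouse 520, without which the log2 fold change in the fit without the block went from 0.47 to 0.25. Both NADP genes fell: Nnt by 0.49 on the log2 scale (adjusted p = 6.22e-05) and Nadk by 0.35 (adjusted p = 0.00782), each lower in 5 of 5 mice. Without the block, the adjusted p was 0.123 for Nampt, 0.165 for Nmnat3, 0.215 for Nnt and 0.0909 for Nadk (edgeR). The same 5 genes passed with the block when mice 496 and 503 were left out, at adjusted p values of 0.00395 for Nampt, 0.0484 for Nmnat3, 0.00267 for Nnt and 0.0483 for Nadk. Gpd2 was at 70.5 ± 31.5 CPM untreated and 65.2 ± 21.7 CPM with piericidin A (SD, n = 5), and Slc25a12 at 32.8 ± 1.81 and 28.9 ± 3.75 CPM (adjusted p = 0.854 and 0.221, edgeR).

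In NDI1 cells no member passed for piericidin A without LPS, and 0% of genes did. No member had an unadjusted p under 0.05, DESeq2 called 0, and the fit with the mouse as block called 0. Got1 was at 57.4, 86.3, 57.2, 55.6 and 42.8 CPM untreated in mice 447, 460, 461, 503 and 521, and at 69.5, 85.2, 64, 55.5 and 43.9 CPM with piericidin A. These sets overlapped almost wholly, with ratios within a mouse of 0.987 to 1.21. The log2 fold change was 0.09 ± 0.20, with an interval of -0.31 to 0.48 (95%, from the SE).

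The difference between genotypes was tested itself. Without the block no member passed, and 1.27% of genes did. With the mouse as block 3 members passed, against 8.96% of genes: Got1, with a difference (NDI1 minus WT) of -0.70 on the log2 scale (adjusted p = 0.00668), Nampt, with -0.56 (adjusted p = 0.0114), and Nnt, with 0.43 (adjusted p = 0.0232). Piericidin A thus moved each of these 3 less in NDI1 than in WT. The unblocked adjusted p was 0.341, 0.589 and 0.731 (edgeR), and without mice 496 and 503 Got1 was the one that passed with the block (adjusted p = 0.0319). For Nmnat3 and Nadk the difference did not pass in either fit (adjusted p = 0.349 and 0.149 with the block).

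**Figure D2:**
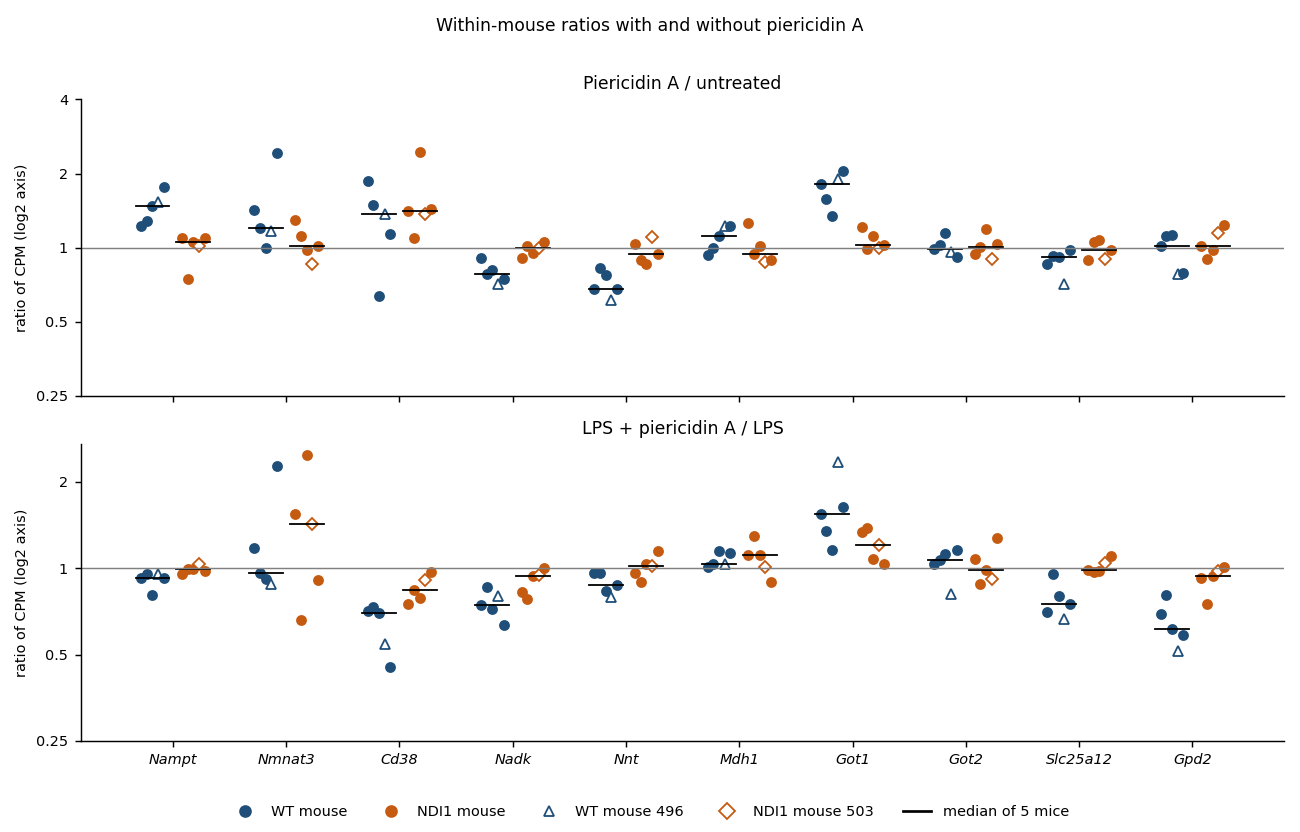
Ratio of CPM with to without piericidin A within each mouse, without LPS (top) and under LPS (bottom), on a log2 axis, with bars for the median of 5 mice. Above, all 5 WT mice lie between 1.34 and 2.05 for Got1 and the 5 NDI1 mice between 0.987 and 1.21. Below, all 5 WT mice lie under 1 for Slc25a12, Gpd2, Cd38, Nadk, Nampt and Nnt, and all 5 NDI1 mice for Cd38.

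Under LPS, piericidin A changed 3 members in WT cells, where 16.7% of genes passed (7.81% higher and 8.92% lower). Got1 rose and Nadk and Slc25a12 fell. Slc25a12 went from 163, 139, 120, 147 and 131 CPM with LPS to 114, 133, 96.6, 97.8 and 97.9 CPM with LPS and piericidin A, and was lower in 5 of 5 mice while the groups overlapped. It fell by 0.37 ± 0.10 on the log2 scale (adjusted p = 0.00838, edgeR). Nadk was at 271 ± 31.7 CPM with LPS and 203 ± 28 CPM with both (SD, n = 5), fell by 0.42 ± 0.15 (adjusted p = 0.0438, edgeR) and was lower in 5 of 5 mice. Got1 went from 39.6, 38, 53.4, 23.9 and 27.4 CPM to 61.5, 51.3, 62.1, 56 and 45 CPM, higher in 5 of 5 mice and 1.51-fold (0.59 ± 0.21, adjusted p = 0.0436, edgeR). Without mice 496 and 503 none of the 3 passed in the fit without the block (adjusted p = 0.0777 for Slc25a12, 0.0822 for Nadk and 0.194 for Got1), and all 3 passed with it. The count was also 0 without WT mouse 496 alone or with only the 2 compared groups in the fit, and 1, Slc25a12, without WT mouse 449, 452 or 520. Nadk was also lost without WT mouse 453 or NDI1 mouse 447 or 460, and Got1 without NDI1 mouse 461. Of 18 alternatives, 10 lost Nadk, 8 lost Got1 and 3 lost Slc25a12, so the calls of Nadk and Got1 lie at the threshold.

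With the mouse as block, 5 members passed, against 34.5% of genes, since Gpd2 and Cd38 also fell. Gpd2 went from 451, 469, 318, 647 and 423 CPM with LPS to 313, 379, 195, 333 and 246 CPM with both. Every mouse was lower, at 0.514 to 0.808 times its level with LPS. Gpd2 fell by 0.64 with the block (adjusted p = 0.0103) against 0.65 ± 0.32 without it (adjusted p = 0.157, edgeR). Cd38 was at 55.7 ± 40.6 CPM with LPS and 34.1 ± 21.8 CPM with both (SD, n = 5) and was lower in 5 of 5 mice, at 0.451 to 0.734 times (adjusted p = 0.0397 with the block and 0.567 without). Neither Gpd2 nor Cd38 passed with the block when mice 496 and 503 were left out. All 4 genes that LPS raised were at a lower mean with LPS and piericidin A than with LPS alone in WT. Both comparisons share the WT libraries with LPS. For Nampt, at 1137 ± 313 and 1235 ± 292 CPM (SD, n = 5), the difference did not pass (edgeR adjusted p = 0.784 without and 0.323 with the block). Nadk (203 against 271 CPM) and Nnt (16.1 against 18.5 CPM), which LPS did not raise, were also lower in WT. In NDI1, Gpd2 (410 against 441 CPM), Cd38 (53.6 against 61.5 CPM) and Nampt (1157 against 1166 CPM) were lower too. Slc25a12 was not (137 against 135 CPM). The pattern is thus not particular to these genes or to WT.

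In NDI1 cells under LPS, piericidin A moved no member past the test and 0% of genes passed. At an unadjusted p under 0.05 the fit without the block counted 0 members and the fit with it 1, and DESeq2 called 0. Slc25a12 was at 117, 137, 152, 144 and 126 CPM with LPS and 115, 133, 149, 149 and 139 CPM with both. The values overlapped nearly wholly, and the log2 fold change was 0.02 ± 0.10, with an interval of -0.17 to 0.21 (95%, from the SE). Got1 was higher in 5 of 5 NDI1 mice, by 1.03 to 1.38 times (log2 fold change 0.28 ± 0.21, adjusted p = 1, edgeR; unadjusted p = 0.0475 with the mouse as block). Cd38 was lower in 5 of 5 NDI1 mice, at 0.748 to 0.967 times its level with LPS (log2 fold change -0.21 ± 0.76, adjusted p = 1, edgeR).

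The difference of the piericidin A effect under LPS between genotypes passed for no member, while 0.979% of genes passed without the block and 9.51% with it. It was largest against its error for Slc25a12, at 0.39 ± 0.14 (NDI1 minus WT, log2), with an adjusted p of 0.168 (edgeR) and 0.06 with the block. The effect on Slc25a12, Nadk and Got1 was thus past the threshold in WT and not in NDI1, but the genotypes were not shown to differ in it. Whether piericidin A changed the response to LPS was also tested within WT. No member passed without the block, where 4.75% of genes did. With the block, against 17.4% of genes, Nampt passed, at -0.68 on the log2 scale (adjusted p = 0.00136; 0.298 without the block, edgeR). In that fit piericidin A changed Nampt 1.46-fold without LPS and 0.912-fold under LPS. Without mice 496 and 503 the adjusted p with the block was 0.0202.

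**Figure D3:**
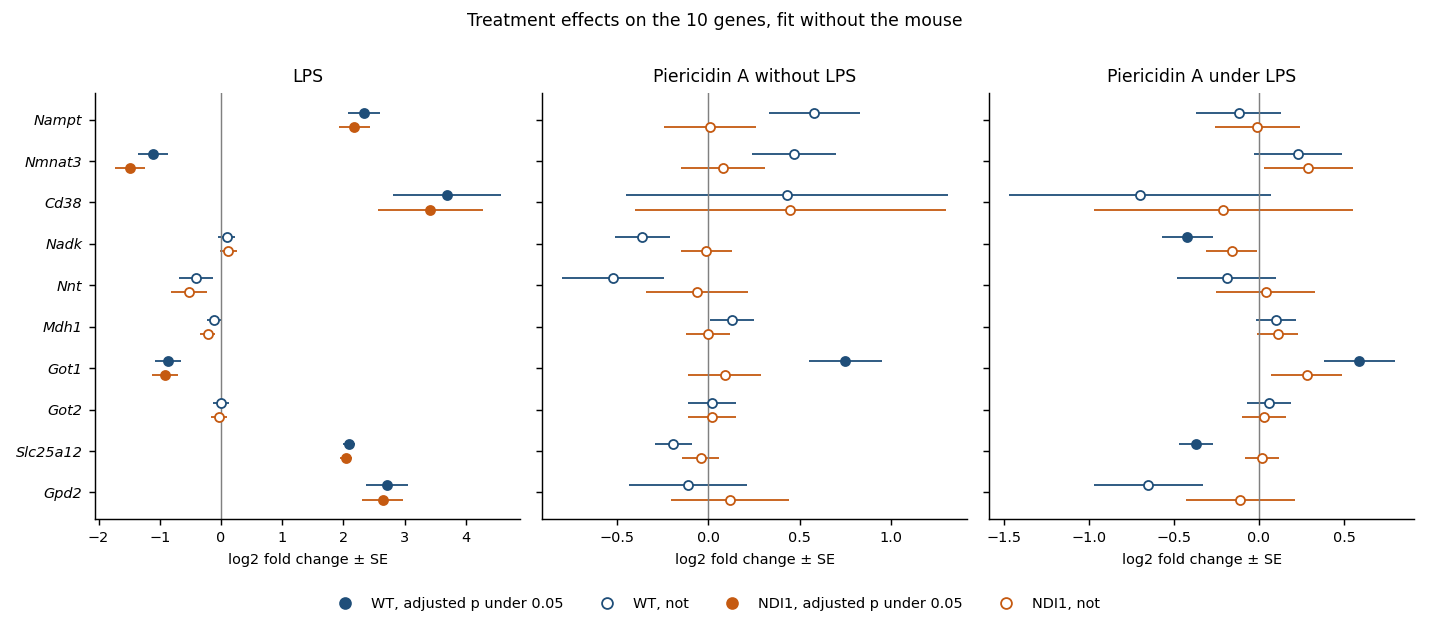
Log2 fold change ± SE of each gene for LPS, piericidin A without LPS and piericidin A under LPS, in WT and NDI1 cells, from the edgeR fit without the mouse; filled symbols have an adjusted p under 0.05. LPS effects nearly coincide between genotypes, while Got1, Nadk and Slc25a12 move with piericidin A in WT, with adjusted p values of 0.0436, 0.0438 and 0.00838 under LPS.

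Levels in NDI1 and WT cells were compared within each treatment. No member differed untreated or with LPS, and 0% of genes did in either case. At an unadjusted p under 0.05 the count of members was 0 in both, and DESeq2 called 0. Untreated differences (NDI1 minus WT, log2) lay between -0.28 ± 0.28 for Nnt and 0.41 ± 0.88 for Cd38, whose value turned to -1.04 without mouse 503 and was 1.32 without mouse 496. With piericidin A 7.8% of genes differed, and Got1 was lower in NDI1, at 43.9 to 85.2 CPM against 97.2 to 132 CPM in WT. These groups did not overlap. The difference was -0.82 ± 0.20 (adjusted p = 0.00785, edgeR; 0.043 without mice 496 and 503). With LPS and piericidin A 12% of genes differed, and Slc25a12 was higher in NDI1, at 115 to 149 CPM against 96.6 to 133 CPM, a difference of 0.34 ± 0.10 (adjusted p = 0.0187, edgeR) that did not pass without mice 496 and 503 (adjusted p = 0.146), nor without NDI1 mouse 461 or 503 or WT mouse 496 or 520 alone. With the 4 libraries of each mouse summed, no member differed between the 5 mice of each genotype and 0.118% of 12676 genes did. Got1 and Slc25a12 had an unadjusted p under 0.05 in that test (0.00946 and 0.0401), and DESeq2 called 0 members.

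The genes fell apart by how much of their variation lay between treatments and how much between mice. Of the sum of squares of log2 CPM over 40 libraries, 97.5% lay between the 4 treatments for Slc25a12, 87.7% for Nampt, 87.1% for Gpd2, 75.3% for Nmnat3, 68.2% for Cd38 and 60.9% for Got1. For Cd38 the share was 88% without mice 496 and 503, and its share between mice went from 26.5% to 6.39%. For Got2 the share between treatments was 0.637% (4.76% without mice 496 and 503), for Nnt and Mdh1 19.8% each and for Nadk 22.3%. The median over all tested genes was 50.9%. The share between the 10 mice, genotype included, was 0.542% for Slc25a12, smaller than in all but 0.11% of tested genes, and 74.9% for Got2 and 71.7% for Nnt, larger than in 97.1% and 96.4% of genes. The median gene had 22.2%.

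**Figure D4:**
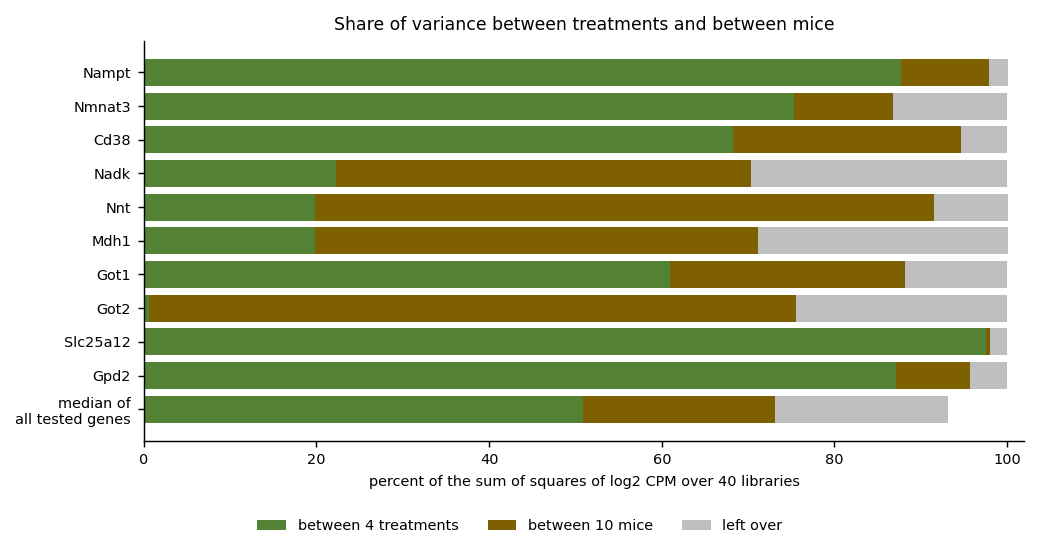
Share of the sum of squares of log2 CPM that lies between 4 treatments, between 10 mice (both genotypes) and in neither, for each gene and as 3 separate medians over all tested genes, which need not add up to the whole. Slc25a12 is nearly all treatment (97.5%) and Got2 mostly mouse (74.9%).

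Nnt split the mice. Its level over the summed libraries of a mouse was 33.7 CPM in WT mouse 520, 25.7 CPM in NDI1 mouse 521 and 24 CPM in WT mouse 496, and 12.5 to 17.4 CPM in the other 7. The largest gap between neighbouring mouse means was 0.47 on the log2 scale. C57BL/6J mice are known to carry a deletion within Nnt that C57BL/6N mice lack, the line was a mix of both, and the Nnt genotype of each mouse was not given in the sources used here, so its part in these levels was not tested. Mice 520 and 521 also had the highest macrophage marker sums untreated, 31027 and 31325 CPM, against 19674 to 25444 CPM in the other 8, and the part of this in the Nnt level was not tested. Got2 stood highest in WT mouse 453, at 63.1 CPM against 40.8 to 50.7 CPM in the other 9 mice. Cd38 stood highest in NDI1 mouse 503, at 74.2 CPM, and WT mouse 496, at 47.6 CPM, against 8.95 to 19.3 CPM in the other 8, the same 2 mice whose neutrophil and dendritic cell markers were high. Genotype itself held 11.3% of the sum of squares for Got1, 9.68% for Nadk and 3.49% or less for each of the other 8.

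**Figure D5:**
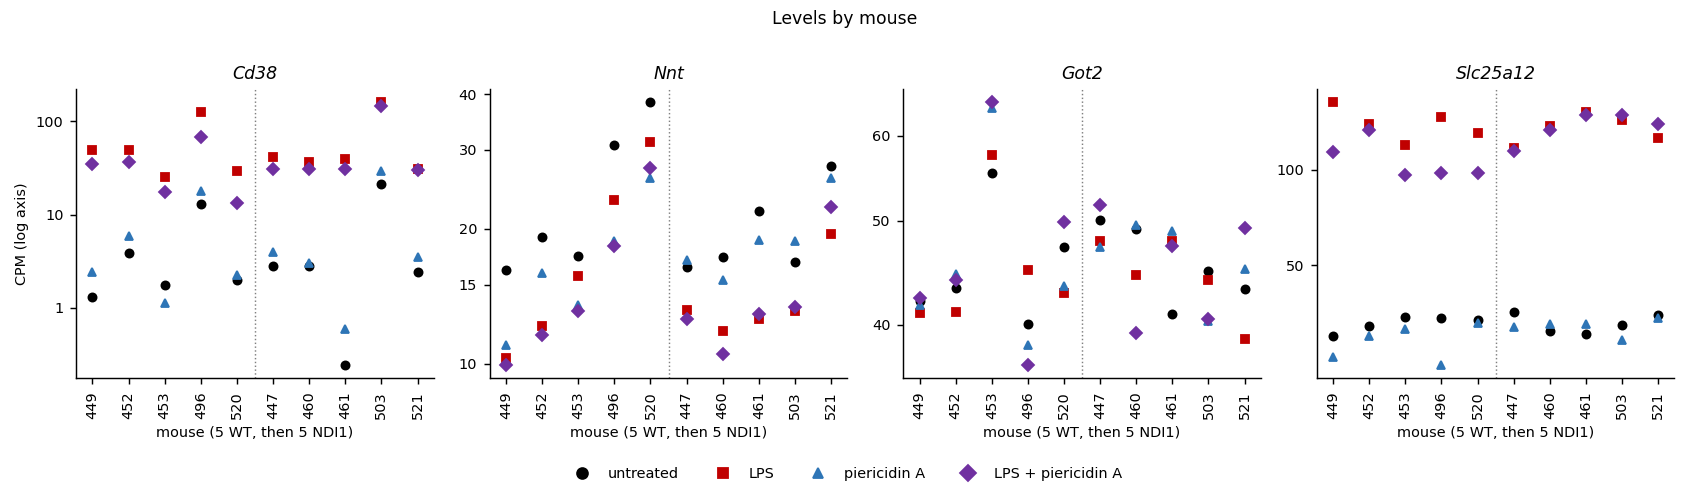
CPM on a log axis for Cd38, Nnt, Got2 and Slc25a12 in each mouse, with 1 symbol per treatment. Cd38 is highest in mice 503 and 496, Nnt in mice 520, 496 and 521, and Got2 in mouse 453, while Slc25a12 separates by LPS in every mouse.

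In the order of the 8 group means, few neighbouring steps were larger than the greater SD of the pair. There were 2 of 7 such steps for Got1, Gpd2 and Slc25a12, 1 for Nampt, Nmnat3, Cd38 and Nadk, and 0 for Nnt, Mdh1 and Got2. For Nampt, Gpd2 and Slc25a12 the 4 groups without LPS lay below the 4 with LPS, and ranges did not overlap at that step. The lowest group above it was WT with LPS and piericidin A in all 3, at 1137, 293 and 108 CPM.

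The tested genes whose log2 CPM was most alike are given as a description over 40 libraries, which share treatments and mice. For Nampt these were Rap1b (Pearson r = 0.989), Gabpb1 and Hspa5 (both 0.986), and for Gpd2 Dram1 and Il13ra1 (both 0.985). Slc25a12 was most like Naa25 (0.993), Tor1aip2 (0.992) and Ythdf1 (0.991), Cd38 like Mmp14 (0.976), Mefv (0.972) and Surf4 (0.955), and Got1 like Rragd (0.930), Aph1c (0.924) and Neu1 (0.917). For Nmnat3 they were Zfand1 (0.946), Acot2 (0.934) and Tmem206 (0.916). Correlations were lower for Mdh1 (Syngr1, 0.842; Fuca2, 0.779; Trem2, 0.759) and Nadk (P2rx4, 0.776; Pik3cg, 0.773; Pitpna, 0.759). They were lowest for Nnt (Acat1, 0.755; Pgd, 0.739; Cxcl14, 0.733) and Got2 (Slc39a11, 0.737; Aldh2, 0.731; Scly, 0.713).

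The same was done with the deviations of the 40 libraries from their 8 group means, and some of the neighbours were shared with the list above. Nampt was then most like Hnrnpk (0.955), Rap1b (0.943) and Ptges3 (0.930), Gpd2 like Adam17 (0.953), Vasp (0.938) and Fpr1 (0.936), and Cd38 like Mmp14 (0.950) and Lyn (0.928). Nadk was most like Irak3 (0.902), Igsf6 (0.887) and Fpr1 (0.880), and Got1 like Abcb1a (0.859), Cnnm2 (0.839) and Slc46a1 (0.823). Mdh1 kept Syngr1 (0.819) and Trem2 (0.800) and gained Mrpl34 (0.763), and Got2 was most like Ddb1 (0.820), with Aldh2 (0.765) also among its nearest. Nnt was most like Txnl1 (0.803), Lyz2 (0.797) and Fam104a (0.795), Nmnat3 like Ccdc189 (0.759), Zfand1 (0.756) and Acot2 (0.743), and Slc25a12 like Mapkbp1 (0.697), Casp8 (0.673) and Ints13 (0.672). Among the members, Cd38 and Gpd2 went together in these deviations (r = 0.88), as did Nadk and Gpd2 (r = 0.81). Over the 32 libraries without mice 496 and 503 these were 0.74 and 0.78, Cd38 had 0.887 with Mmp14 and 0.832 with Lyn, and Nmnat3 had 0.590 with Zfand1 and 0.571 with Acot2.

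The wider pathway was described by 7 lists that hold 61 genes, the members included, of which 49 were tested. With LPS in WT, 17 of the 49 rose and 20 fell (edgeR), which is 75.5% against 62.5% of all tested genes, with a median log2 fold change of -0.24 against -0.01 over all tested genes. Without mice 496 and 503, 73.5% of the 49 passed, against 59.9% of all. Of 15 tested NAD consumers, 10 rose and 5 fell, where 31.5% of all tested genes rose and 31% fell. This list was chosen with earlier results of these data known and holds only part of the poly-ADP-ribose polymerase family, so its count does not describe NAD consumers in general. Of that family, Parp12, Parp9, Parp14 and Parp10, which attach ADP-ribose taken from NAD, were among the largest changes. Parp12 went from 87.3 ± 12.3 to 809 ± 158 CPM in WT (SD, n = 5), a log2 fold change of 3.21 ± 0.17 (adjusted p = 2.35e-18, edgeR). Parp9 changed by 3.02 ± 0.16, Parp14 by 3.00 ± 0.24 and Parp10 by 2.81 ± 0.15, and in NDI1 cells the 4 genes changed by 3.13, 2.96, 2.98 and 2.76.

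Of 7 tested genes of NAD synthesis and salvage, Nampt rose and 3 fell: Nmnat3 and, named after their values were seen, Nmrk1 and Slc25a51. That is 57.1%, near the 62.5% of all tested genes. In the kynurenine pathway, which leads from tryptophan to NAD, 4 of 8 genes passed the filter on low counts. In WT 3 rose and 1, Afmid, fell, or 100% against 62.5% of all tested genes. In NDI1 2 rose and 0 fell, or 50% against 62.7%. Without LPS the group means were at most 0.0887 CPM for Ido2 and 0.716 CPM for Kynu. These 2 genes thus passed the filter mainly through libraries with LPS, so the shares cannot be set against all tested genes. Kynu and Afmid, the latter named after its values were seen, did not pass in NDI1. Ido2, an enzyme of its first step, had a log2 fold change of 6.27 ± 0.79 in WT (adjusted p = 1.14e-08, edgeR), from 0.0249 ± 0.0557 to 3.02 ± 1.22 CPM (SD, n = 5), so that its fold rests on an untreated level close to 0. Kynu, which acts further along, was at 0.442 ± 0.281 and 1.61 ± 1.31 CPM (1.86 ± 0.70, adjusted p = 0.0197, edgeR), and in NDI1 its log2 fold change was 0.89 (adjusted p = 0.255). The difference of the LPS effect between genotypes passed for 0 of the 4 kynurenine genes, with or without the block, so the genotypes were not shown to differ in Kynu or Afmid. With LPS in WT, 31.5% of all tested genes rose and 31% fell, and the short lists that follow are not read as departing from this. Of 7 tested malate-aspartate genes 1 rose and 3 fell, and of 2 glycerol phosphate genes 1 rose and 1 fell. Of 5 genes of other NADH oxidation 1 rose and 3 fell, and of 9 NADP and NADPH genes none rose and 4 fell. The last count is 44.4% against 62.5% of all tested genes, and with the mouse as block 1 rose and 7 fell, or 88.9% against 72%. Without mice 496 and 503, none of the 5 genes of other NADH oxidation rose and 3 fell.

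With piericidin A alone in WT, 4 of the 49 rose and 4 fell (edgeR), which is 16.3% against 14.8% of all tested genes. Under LPS 4 rose and 6 fell, or 20.4% against 16.7%. These shares are near the background, and without mice 496 and 503 both were 6.12%, against 7.66% and 8.07% of all. With the mouse as block they were 38.8% against 34.2% without LPS and 34.7% against 34.5% under LPS. In NDI1 neither comparison called any of the 49, and neither did the fit with the mouse as block. Of 15 tested NAD consumers in WT, 2 rose and 3 fell without LPS, and 1 rose and 4 fell under LPS. Among those that fell under LPS were Parp12, from 809 ± 158 to 529 ± 106 CPM, and Parp10, from 250 ± 50.1 to 168 ± 32.2 CPM (SD, n = 5). Parp9 and Parp14 did not pass there. Under LPS in WT the calls in the malate-aspartate list were Got1 and Slc25a13, which rose, and Slc25a12, which fell. Slc25a13 went from 10.7 ± 2.91 to 19.3 ± 4.18 CPM (SD, n = 5), with a log2 fold change of 0.84 ± 0.25 (adjusted p = 0.0173, edgeR), and in NDI1 it was at 11.2 ± 3.13 and 11.7 ± 3.63 CPM. Gpd1l rose under LPS in WT, by 0.44 ± 0.16 (adjusted p = 0.0466, edgeR). Of Got1, Slc25a12, Slc25a13 and Gpd1l, only Slc25a13 passed under LPS in WT without mice 496 and 503 in the fit without the block. No gene of the lists outside the members that passed with piericidin A in WT had a log2 change of 1 or more in size.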

How the data were processed

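RNA-seq was performed on poly(A) RNA from 40 BMDM libraries (5 mice per genotype, 4 treatments per mouse). Per the labels and the study's methods, the authors demultiplexed with bcl2fastq, trimmed with Trimmomatic, aligned to mm10 with STAR and counted exon reads per gene with HTSeq, and they deposited raw read counts for 43430 Ensembl genes. The annotation release, the strand setting and the versions of tools other than Trimmomatic were not given in the sources used here. Symbols were matched for 42462 identifiers. Libraries held 6950748 to 13552070 counts. Same-group libraries differed beyond counting error (chi-square per degree of freedom 9.32 to 75.3), so none was taken as a repeat deposit. Floors cover counting error only.

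The main test was edgeR 4.0.16 under R 4.3.3 (filterByExpr, TMM, quasi-likelihood test over all 8 groups, Benjamini-Hochberg adjustment). SEs are those of the log2 fold change. Deviations from the group means went together within a mouse (mean r = 0.453 over 60 pairs, lowest 0.099, against -0.107 between mice), and replicate numbers in the labels are mouse numbers, so fits with the mouse as block were also made, and genotypes were compared with the 4 libraries of a mouse summed (12676 genes). Alternatives were DESeq2 1.42.0, RLE factors, other filters, only the compared groups, each mouse left out, and, added after seeing the data, mice 496 and 503 left out, also for the lists, correlations and variance shares. CPM used a prior count of 2 on the log scale. The script was tested on simulated data. Pathway genes outside the members were named if they passed with a log2 change of at least 1 with LPS or piericidin A in WT, at most 6 per comparison, and the 3 most alike genes were named per member, except for 3 entries that are not reported here. The members and lists were chosen with earlier results of these data known. The NDI1 transgene was not analysed here. Promoter sequences are from RefSeq (GRCm38.p6).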

Additional observations from a re-analysis of the deposited data

Results flagged for a closer look

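In 12 of 80 sets of 5 libraries, 1 value lay farther from its nearest neighbour than Dixon's 95% limit allows. Chance gives about 1 in 20 for a single set. Each mouse gave 4 libraries, so the sets are not independent and the 12 cannot be weighed against that rate. Cd38 accounted for 7 of the 12. WT mouse 496 stood apart at 12.9 CPM untreated, 126 CPM with LPS and 17.7 CPM with piericidin A, against next highest values of 3.92, 49.3 and 5.85 CPM. NDI1 mouse 503 stood apart at 21.1 CPM untreated, 159 CPM with LPS, 29 CPM with piericidin A and 145 CPM with both, where the next mice were at 2.79, 41.1, 3.94 and 31.1 CPM. Neutrophil markers were also highest in these 2 mice, and the part of that in Cd38 was not tested. Nnt stood apart in NDI1 mouse 521, at 19.5 CPM with LPS and 22.4 CPM with LPS and piericidin A. In WT mouse 453, Mdh1 stood apart at 92.4 CPM with LPS and piericidin A, and Got2 at 57.6 CPM with LPS and 63.7 CPM with piericidin A.

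The effect of piericidin A without LPS differed between genotypes (NDI1 minus WT, log2, mouse as block) for Got1 by -0.70 (adjusted p = 0.00668), Nampt by -0.56 (adjusted p = 0.0114) and Nnt by 0.43 (adjusted p = 0.0232). None of the 3 passed without the block (adjusted p = 0.341, 0.589 and 0.731). With the block and without mice 496 and 503, Got1 passed (adjusted p = 0.0319) and Nampt (0.0938) and Nnt (0.214) did not.

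A separate column of reads assigned to no library, 29104648 counts in all, held 1232 CPM for the 10 genes together.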

How the results depend on the processing

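The alternatives left 237 counts of called members within 1.5 times the reported count and moved 22. No member changed direction in a comparison where it passed in any fit, while values that passed in none did change sign, among them NDI1 against WT for Cd38 in each treatment. The LPS calls of Nampt, Nmnat3, Cd38, Got1, Slc25a12 and Gpd2 were past the threshold under each alternative run, in both genotypes, except that a filter of at least 10 counts in every library left Cd38 out, so that it has no value there, and the lower Got1 in NDI1 with piericidin A under all 16 of its alternatives. With the mouse as block, members called went from 1 to 5 for piericidin A in WT without LPS, from 3 to 5 under LPS, from 0 to 3 for the genotype difference without LPS and from 0 to 1 for the change of the LPS effect. The block changed the call of no comparison other than these and the added Nnt and Mdh1 with LPS. In NDI1 both also passed under some alternatives without the block, and with the block Mdh1 was lost without mice 496 and 503 (adjusted p = 0.0572). No paired analysis was possible for NDI1 against WT because the genotypes share no mouse. With the block and without mice 496 and 503, an alternative chosen after seeing the data, the 4 counts were 5, 3, 1 and 1. Without the block, leaving out these 2 mice gave 0 for piericidin A under LPS in WT and 0 for NDI1 against WT with LPS and piericidin A. With only the compared groups in the fit these 2 counts were also 0, and with no filter on low counts the former was 1. Leaving out 1 mouse at a time gave 0 to 1 members for piericidin A in WT without LPS (0 without mouse 496), 0 to 3 under LPS (0 without 496), 1 to 2 for NDI1 against WT with piericidin A (Nadk gained without mouse 461) and 0 to 1 with LPS and piericidin A (0 without 461, 496, 503 or 520). In each of these the reduced fit has fewer libraries. Counts as low as 3 for Cd38 and 11 for Nmnat3 limit those values in single libraries.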
